A study of Homo sapiens and Mus musculus with 19 samples.

Results

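The cell cycle and DNA replication genes described here are 41 genes whose transcripts rise and fall as a cell divides, 17 for DNA replication and S phase entry and 24 for mitosis. They were chosen by symbol, and a gene was read from probe sets annotated to that symbol alone, with the brightest probe set standing for the gene. All 41 were measured among 19775 human genes, and 40 of 41 had a counterpart among 18194 mouse genes, since no mouse probe set named Ccnb1 alone. All 41 human members and all 40 mouse members passed the filter on low signals. The human signals of the members ranged from 269 to 26068 intensity units and the mouse signals from 120 to 17978.

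The study asked how blocking or activating NF-kB changes gene expression in lung cancer cells. Human A549, H23, H358, HCC827 and PC9 cells, grown in RPMI, each carried 1 of 3 retroviruses, with 1 array per line and vector (15 arrays). MiG was the control retrovirus, which marks cells with GFP. IkB_SR was MiG carrying an IkB alpha super-repressor, in which serines 32 and 36 were changed to alanine, so that the protein resists the phosphorylation that normally leads to its degradation and holds NF-kB in the cytoplasm. IKKb was MiG carrying an activated IKK beta, the kinase that phosphorylates IkB, with serines 177 and 181 changed to glutamate. The mouse line was LLC-kB OVA, a Lewis lung carcinoma line called LLC in the following, which grew in DMEM and carried MiG or IKKb, with 2 arrays each. All 19 samples were transduced and sorted on GFP, so the control cells also went through infection and sorting. The labels give neither the time after transduction nor whether cultures were independent. In the human lines the p-values rest on how unevenly the vectors differed from line to line. With 1 array per line and vector, that spread cannot be separated from technical spread. In LLC the p-values rest on the spread between 2 arrays per vector, which may be technical.

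Cells license replication origins in G1, when CDC6 and CDT1 load the ring of MCM2 to MCM7 onto DNA, and they fire them in S phase, when CDC45 joins the ring to form the working helicase. The licensing genes, the E-type cyclins and the enzymes that supply deoxynucleotides are classic targets of the E2F transcription factors, which RB proteins hold in check until G1 cyclin kinases release them. The mitotic genes come on later, in G2 and M, under the MuvB core with B-MYB and FOXM1, and the DREAM form of the same complex keeps them silent in resting cells through a promoter element called the CHR. NF-kB is known to induce cyclin D1 in several cell types, which makes entry into the cycle a natural readout of these vectors.

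The promoters show how the sets differ in sequence. RefSeq promoter sequences (GRCh38.p14, 250 bases before to 50 bases after a transcript start) were at hand for 33 of the 41 members, 14 replication and 19 mitotic. The CHR was searched as TTTGAA, the CCAAT box as CCAAT and the E2F site as TTTCGCGC, TTTGGCGC or TTCCCGCC, each on both strands and at any listed start of a gene. The CHR letters were in 12 of 19 mitotic promoters (63.2%), in 1 of 14 replication promoters (7.14%) and in 18.2% of the 27305 genes with a promoter sequence. The E2F letters ran the other way, with 9 of 14 replication promoters (64.3%), 3 of 19 mitotic promoters (15.8%) and 5.11% of all genes. The CCAAT box was in 10 of 14 replication promoters (71.4%), 16 of 19 mitotic promoters (84.2%) and 39.7% of all genes. These are matches of letters, not bound sites.

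The following 8 stretches show both layouts, the 100 bases before the start, read 5′ to 3′ on the gene's strand, with CHR, CCAAT and E2F letters on either strand in capitals. The first 4 are replication members and carry an E2F match, and the last 4 are mitotic members and carry a CHR match. All 8 have a CCAAT box before that match, so the box does not set the layouts apart. They are examples, and not every member of a set carries the match of its set. In MCM6 the capital run TTTGGCGCGAAA holds E2F letters on each strand that overlap. Coordinates are MCM3 chr6:52284743-52284842 (minus strand), MCM6 chr2:135876444-135876543 (minus strand), PCNA chr20:5126623-5126722 (minus strand), 1 of its 2 starts, E2F1 chr20:33686386-33686485 (minus strand), PLK1 chr16:23678789-23678888 (plus strand), CDC20 chr1:43358881-43358980 (plus strand), CCNB2 chr15:59105046-59105145 (plus strand) and KIF11 chr10:92593030-92593129 (plus strand).
MCM3: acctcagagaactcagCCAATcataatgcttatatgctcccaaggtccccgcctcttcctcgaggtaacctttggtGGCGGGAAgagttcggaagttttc
MCM6: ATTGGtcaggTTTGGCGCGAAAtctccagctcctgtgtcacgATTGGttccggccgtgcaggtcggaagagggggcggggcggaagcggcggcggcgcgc
PCNA: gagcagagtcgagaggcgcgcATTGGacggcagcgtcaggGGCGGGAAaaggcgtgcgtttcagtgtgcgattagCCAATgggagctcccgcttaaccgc
E2F1: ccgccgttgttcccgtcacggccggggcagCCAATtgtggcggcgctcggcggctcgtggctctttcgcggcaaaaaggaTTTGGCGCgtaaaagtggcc
PLK1: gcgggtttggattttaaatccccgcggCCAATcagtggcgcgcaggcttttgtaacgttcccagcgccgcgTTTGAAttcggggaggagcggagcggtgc
CDC20: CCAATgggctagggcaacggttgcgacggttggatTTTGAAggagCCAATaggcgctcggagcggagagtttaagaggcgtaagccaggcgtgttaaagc
CCNB2: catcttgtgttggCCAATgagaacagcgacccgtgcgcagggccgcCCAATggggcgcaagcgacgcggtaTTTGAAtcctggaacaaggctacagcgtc
KIF11: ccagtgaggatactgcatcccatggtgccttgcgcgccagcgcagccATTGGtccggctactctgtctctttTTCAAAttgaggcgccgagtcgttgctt
MCM3 and MCM6 encode helicase ring subunits, PCNA the sliding clamp and E2F1 the transcription factor itself. PLK1 encodes a mitotic kinase, CDC20 an activator of the anaphase-promoting complex, CCNB2 a B-type cyclin and KIF11 the motor that pushes spindle poles apart.

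The median signal of an array was 51.3 to 76.5 units in human and 55.0 to 64.4 in mouse samples. The vectors were checked through the genes they carry. NFKBIA, which encodes IkB alpha, exceeded its MiG level under IkB_SR in A549, H358, HCC827 and PC9 (8963 against 2200 units in H358), but not in H23 (7292 against 9329). With IKKb, NFKBIA also exceeded its MiG level in every human line, at 8602 units in H358 and 6877 against 2058 in HCC827. The step was small in A549 (5306 against 4581), H23 (9950 against 9329) and PC9 (1384 against 1185), each on single arrays. In LLC, Nfkbia read 12485 and 9722 with IKKb against 5698 and 4645 with MiG. A rise of NFKBIA, as in H358, therefore does not tell IkB_SR from IKKb. The brightest IKBKB probe set did not show the IKKb vector in human cells (749 with IKKb against 944 with MiG in A549), and whether it lies within the inserted sequence was not tested. In H358 it read 909 with MiG, 758 with IKKb and 1289 with IkB_SR, the highest reading of the human arrays. What that reading on the IkB_SR array stands for was not tested. In LLC the Ikbkb probe set read 2059 and 1745 with IKKb against 1637 and 1535 with MiG. Of 6 epithelial markers, all 6 lay above the 40th percentile of every array in A549, H358, HCC827 and PC9, and 4 did in H23. KRT8 was at 12135 or more and KRT18 at 16555 or more in all human lines, but in H23 KRT19 read 2.15 to 5.75 and KRT7 33.0 to 183, and EPCAM was 247 to 449 in A549 and H23. The lung lineage factor NKX2-1 reached 1045 to 2486 in H358 and 262 to 461 in H23, and 2 to 4 of the 6 lung epithelial markers lay above that percentile on every array of a human line. The 6 measured leukocyte markers summed to 166 to 887 units on the human arrays, and 0 of them in PC9 to 4 in A549 lay above the percentile on every array of a line. PTPRC, the pan-leukocyte marker, was at 37.3 or less, while ITGAM reached 654 in H23 and 438 in PC9, CD14 reached 227 in A549 and CSF1R 197 in HCC827. Of 8 fibroblast and endothelial markers, 3 to 5 lay above the percentile on every array of a human line, and the list summed to 938 to 1870 units. In LLC, 2 of 6 epithelial markers lay above the percentile on every array, Krt8 and Krt18 (4554 to 7951), and Cdh1 was at 19.4 or less. Its fibroblast and endothelial list (3 of 8 above on every array) summed to 10241 to 20377 units, nearly all of it Col3a1 (9899 to 20078), with Col1a1 at 20.0 or less, Dcn at 79.5 or less and Pecam1 and Vwf at 15.3 or less. The part of these markers in the differences below was not tested. A bulk array cannot tell fewer cycling cells from less transcript per cycling cell, and this holds for every difference below.

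In the fit over all 5 lines, no replication member passed the test between IkB_SR and MiG, but 1 line stood apart. The 17 fitted log2 differences ran from -0.28 to just below 0, with a median of -0.08 against 0.00 for all genes. None passed an adjusted p of 0.05 (limma, Benjamini-Hochberg over 15212 genes), in a comparison where 0% of all genes did, and the smallest adjusted p of a member was 0.995. At an unadjusted p below 0.05 there were 0 of 41 members and 675 of all genes (4.44%). All 17 signs were negative, but the median became 0.05 without the H358 IkB_SR array and 0.02 without the H358 line.

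CDC45, the helicase cofactor, had the lowest fitted value. Its signals with MiG, in the order A549, H23, H358, HCC827 and PC9, were 1140, 903, 714, 661 and 640 units, and with IkB_SR 989, 882, 322, 644 and 628. IkB_SR was lower in 5 of 5 lines, by a log2 difference of -0.28 ± 0.16 (SE; 95% interval -0.62 to 0.06, adjusted p = 0.995 by limma). The fall in H358 stood far from the others, and without that array the log2 difference was -0.06 ± 0.09. CDC6, the loader, had a log2 difference of -0.23 ± 0.15 and was lower in 3 of 5 lines. At the other end, E2F1 had a log2 difference of 0.00 ± 0.17 and CCNE2 of -0.01 ± 0.19, since each was higher with IkB_SR in 3 lines and lower in H358.

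**Figure D1:**
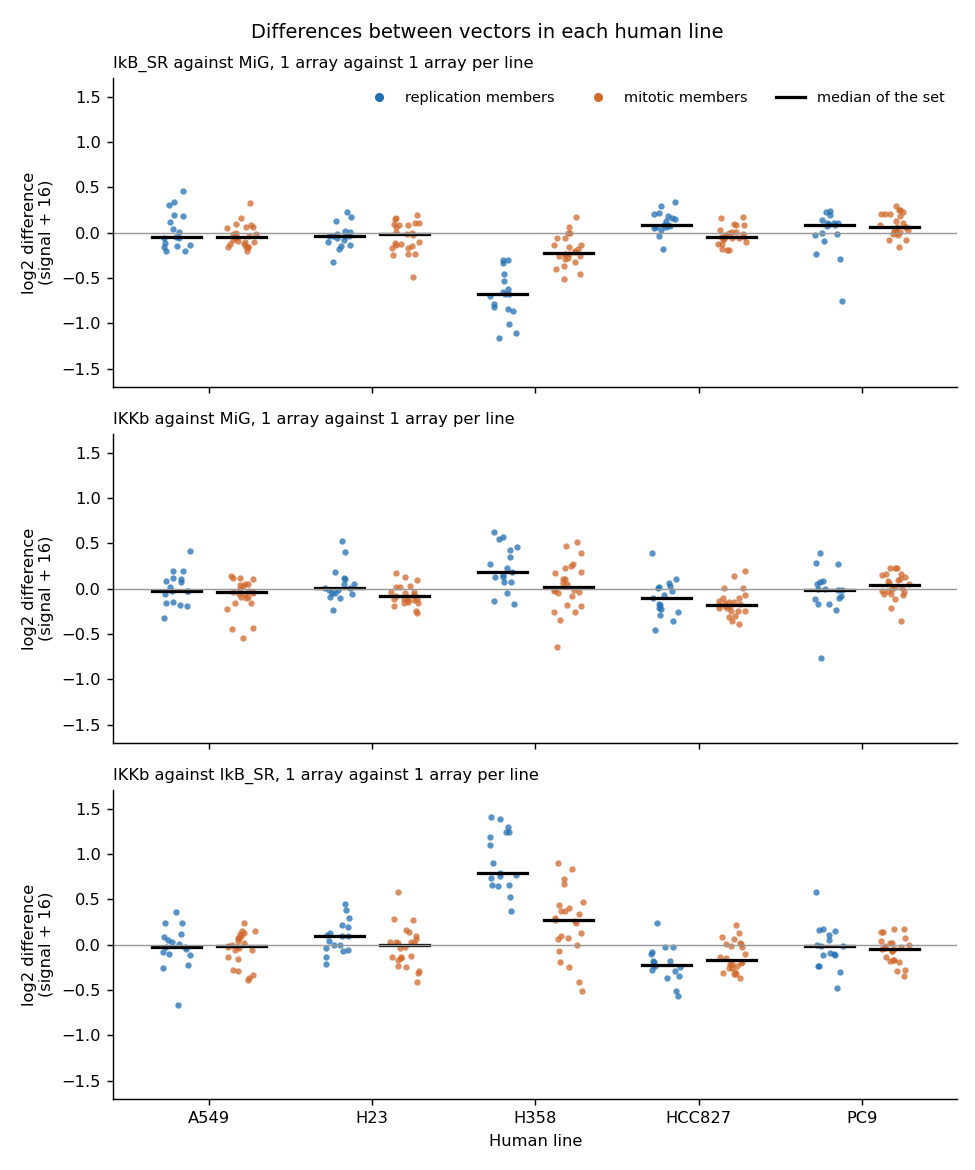
Log2 differences (signal plus 16) of single arrays for the 17 replication and 24 mitotic members, by line and vector comparison, each point 1 member and each bar a median. The replication members of H358 lie low for IkB_SR against MiG (median -0.68), while the medians of the other lines lie between -0.05 and 0.09.

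Per line, the median log2 difference of the 17 replication members between the IkB_SR and the MiG array was -0.68 in H358. The same median was -0.05 in A549, -0.04 in H23, 0.09 in PC9 and 0.08 in HCC827, where 15 of 17 members were higher. In H358 all 17 members were lower with IkB_SR, 12 of them by more than 1.5-fold, where 5.49% of all genes were that much lower. In the other lines 0 of 17 members were that much lower in A549, H23 and HCC827 (7.55%, 4.58% and 7.26% of all genes), and 1 in PC9 (7.39% of all genes). The 1 in PC9 was CCNE1, at 710 against 1210 units. With 1 array per vector the H358 values have no replicate check and no test. Quantile normalization and median centring gave -0.71 and -0.70 for H358, each with 12 members past 1.5-fold.

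Every gene of the helicase ring was lower with IkB_SR than with MiG in H358, and so were the loaders and CDC45. MCM5 read 2195 units with MiG, 970 with IkB_SR and 2569 with IKKb, a 2.24-fold step between the first pair. MCM7 read 3888, 2161 and 3748, and MCM3 read 6074, 3748 and 5418. Every MCM signal was lowest on the IkB_SR array, and the fold of MiG over IkB_SR for MCM2, MCM4 and MCM6 was 1.60, 1.54 and 1.60. Among the loaders, CDC6 read 1797 with MiG, 884 with IkB_SR and 2035 with IKKb (2.02-fold). CDT1 read 868, 485 and 1168 (1.76-fold), and CDC45 read 714, 322 and 783 (2.16-fold).

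The S phase cyclins and the nucleotide enzymes went the same way, by 1.23-fold to 1.81-fold. CCNE2, an E-type cyclin, read 2149, 1177 and 3156 in the same order (1.81-fold), and CCNE1 read 343, 269 and 516 (1.26-fold). TYMS, which makes thymidylate, read 7738, 4926 and 10608 (1.57-fold), and thymidine kinase TK1 read 3296, 1905 and 2995 (1.72-fold). The members short of 1.5-fold were RRM2 (1.44-fold) and RRM1 (1.23-fold), the subunits of ribonucleotide reductase, with E2F1 (1.38-fold), PCNA (1.23-fold) and CCNE1. The values just inside and just outside the 1.5-fold line were MCM4 and RRM2. Of the 34 probe sets of the replication members, 32 were lower with IkB_SR and 24 by more than 1.5-fold, with a median log2 difference of -0.69. The other 2, 1 each of CCNE1 and MCM4, lay below the 40th percentile of the MiG array.

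**Figure D2:**
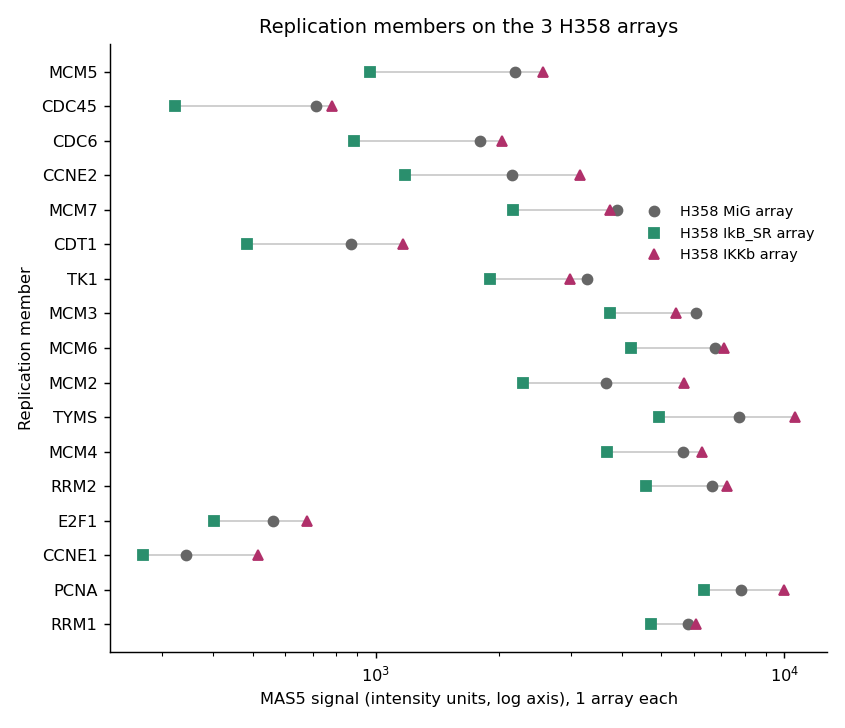
Signals of the 17 replication members on the H358 MiG, IkB_SR and IKKb arrays (intensity units, log axis), 1 array each, ordered by the fold of MiG over IkB_SR. The IkB_SR array is lowest for 17 of 17 members, from 2.24-fold for MCM5 to 1.23-fold for PCNA and RRM1.

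The H358 MiG and IkB_SR arrays had similar control probe sets. The Dap spike-in read 1128 and 1103 units, the 3′ actin probe set 16940 and 16795, and the ratio of 3′ to 5′ actin 1.41 and 1.38. Lung epithelial markers were less alike: NKX2-1 read 2397 and 2486 and SFTPB 212 and 260, but NAPSA read 184 and 331 and SFTPC 66.3 and 156. All 4 tested markers of that list were higher with IkB_SR, 2 by more than 1.5-fold, with a median log2 difference of 0.53. The H358 IKKb array differed from both, with Dap at 4376, 3′ actin at 24961, a ratio of 1.74 and NKX2-1 at 1045. The part of these in any difference that uses the IKKb array was not tested.

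Other lists of the same pathway, chosen with earlier results of these data known, held genes that were low on the H358 IkB_SR array too. Apart from CCND1, the genes named from these lists are those with the lowest values. Between the H358 IkB_SR and MiG arrays 48.8% of all genes were lower, and 5.49% by more than 1.5-fold. Of 28 other origin and fork genes, 28 were lower than with MiG and 13 by more than 1.5-fold, with a median log2 difference of -0.57, against -0.06 to 0.10 in the other lines. GINS2, part of the active helicase, read 1581 with MiG and 674 with IkB_SR, and MCM10, which helps start the fork, read 1387 and 598. Of 11 replication stress and repair genes 9 were lower and 6 by more than 1.5-fold, with a median of -0.67, and the nuclease EXO1 read 601 and 271. Of 14 other E2F and DREAM factors 12 were lower and 3 past 1.5-fold, namely E2F2, E2F7 and E2F8. CDC25A, the phosphatase that activates the S phase kinases, had the steepest step on the G1 list, from 586 to 184 units (3.01-fold). No other tested gene of that list was lower by more than 1.5-fold, and their log2 differences ran from -0.47 to 0.09. CCND1, which encodes cyclin D1, read 6168 with MiG and 5838 with IkB_SR.

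Inhibitors and growth arrest genes were mixed. The 11 CDK inhibitors and RB family genes had a median log2 difference of 0.16 on the H358 arrays, and 5 were lower with IkB_SR, a share near the 48.8% of all genes that were lower. The CDK inhibitor CDKN1A read 1578 with MiG and 2325 with IkB_SR, while PKMYT1, a kinase that restrains CDK1, and RBL1, an RB family member, were lower by more than 1.5-fold. Of 10 quiescence and growth arrest genes 8 were higher, and TXNIP, an inhibitor of thioredoxin, went from 3448 to 6652 units. Across the 5 lines, none of these lists held a gene past the threshold between IkB_SR and MiG.

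The mitotic members stayed near the control level with IkB_SR. Their median log2 difference was -0.04 over the 5 lines, with 17 of 24 below 0 and none past the threshold. All 24 intervals lay within a 1.5-fold change in either direction. FOXM1, the transcription factor of the mitotic program, was lower with IkB_SR in 5 of 5 lines, with a log2 difference of -0.18 ± 0.10 (adjusted p = 0.995 by limma). MKI67, the proliferation antigen, was also lower in 5 of 5 lines (-0.18 ± 0.12), and the highest values were those of NUSAP1 (0.10 ± 0.08), a spindle protein, and CDK1 (0.10 ± 0.10).

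Other mitotic members lay between these values. TOP2A, the topoisomerase that untangles sister chromatids, had a log2 difference of 0.02 ± 0.08 (95% interval -0.14 to 0.19), and CCNB1, the main mitotic cyclin, of 0.04 ± 0.09. PLK1 was lower with IkB_SR in 4 of 5 lines, with a log2 difference of -0.12 ± 0.11. Among the replication members, RRM2 (-0.05 ± 0.13), TYMS (-0.05 ± 0.17) and PCNA (-0.02 ± 0.10) sat near 0 in the fit over all lines.

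In H358 the mitotic members were lower with IkB_SR by a median log2 difference of -0.22, 22 of 24 of them, with 0 past 1.5-fold. Of all genes 48.8% were lower there, and 5.49% by more than 1.5-fold. FOXM1 read 1371 with MiG and 956 with IkB_SR, MKI67 read 939 and 681, and the motor gene KIF23 read 1609 and 1214. KIF2C and BUB1 were a little higher, BUB1 at 2953 and 3317. On this pair of arrays the replication median (-0.68) lay below the mitotic median, and the 42 other spindle and checkpoint genes had a median of -0.22. Some of those 42 fell further than any mitotic member, namely SPC24 (1.73-fold), NCAPG (1.72-fold), ZWINT (1.69-fold) and SPC25 (1.52-fold). CDC25B, PTTG1, CCNF, KNTC1 and INCENP of that list were higher, none by 1.5-fold. Elsewhere the mitotic medians were 0.06 in PC9, -0.02 in H23, -0.04 in HCC827 and -0.05 in A549.

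Activated IKK beta left both sets close to the control in the human lines. Against MiG, the replication members had a median log2 difference of 0.03, 11 of 17 above 0, and the mitotic members of -0.05, 19 of 24 below 0, beside -0.01 for all genes. None of the 41 passed the threshold in limma, where 0% of all genes did. At an unadjusted p below 0.05 there were 3 members and 839 of all genes (5.52%). All 41 intervals excluded a 2-fold change in either direction, and 40 excluded 1.5-fold.

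The highest replication values with IKKb were those of CCNE2 (0.21 ± 0.19) and CDT1 (0.20 ± 0.17), and the lowest those of E2F1 (-0.14 ± 0.17) and MCM3 (-0.11 ± 0.10), all as log2 differences with SE. BUB1, a kinetochore kinase of the spindle checkpoint, was lower with IKKb in 5 of 5 lines, at 1456, 4333, 2323, 1695 and 2281 units against 1710, 4713, 2953, 1894 and 2479 with MiG in A549, H23, H358, HCC827 and PC9. Its log2 difference was -0.19 ± 0.08 (adjusted p = 0.878 by limma). The centromeric histone CENPA (-0.23 ± 0.11) and the kinetochore motor CENPE (-0.22 ± 0.09) were each lower in 4 of 5 lines with the same adjusted p. The levels of BUB1 differed far more between lines than between vectors.

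The H358 IKKb array moved the replication summary. Without it, the replication median of IKKb against MiG went from 0.03 to -0.10, and without the whole H358 line it was -0.01. The mitotic median was -0.09 without that array. Per line, the replication median was highest in H358 (0.18), followed by H23 (0.00), PC9 (-0.01), A549 (-0.02) and HCC827 (-0.10). The mitotic medians in that order were 0.02, -0.08, 0.04, -0.04 and -0.18. In H358, 14 of 17 replication members were higher with IKKb, where 48.6% of all genes were lower. Only MCM2 passed 1.5-fold, at 5664 against 3669 units, and 1 member is no result about the set. After quantile normalization 12 of 17 were higher and 2 passed 1.5-fold. Over all lines MCM2 had a log2 difference of 0.03 ± 0.16, which was -0.18 ± 0.10 without the H358 IKKb array.

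**Figure D3:**
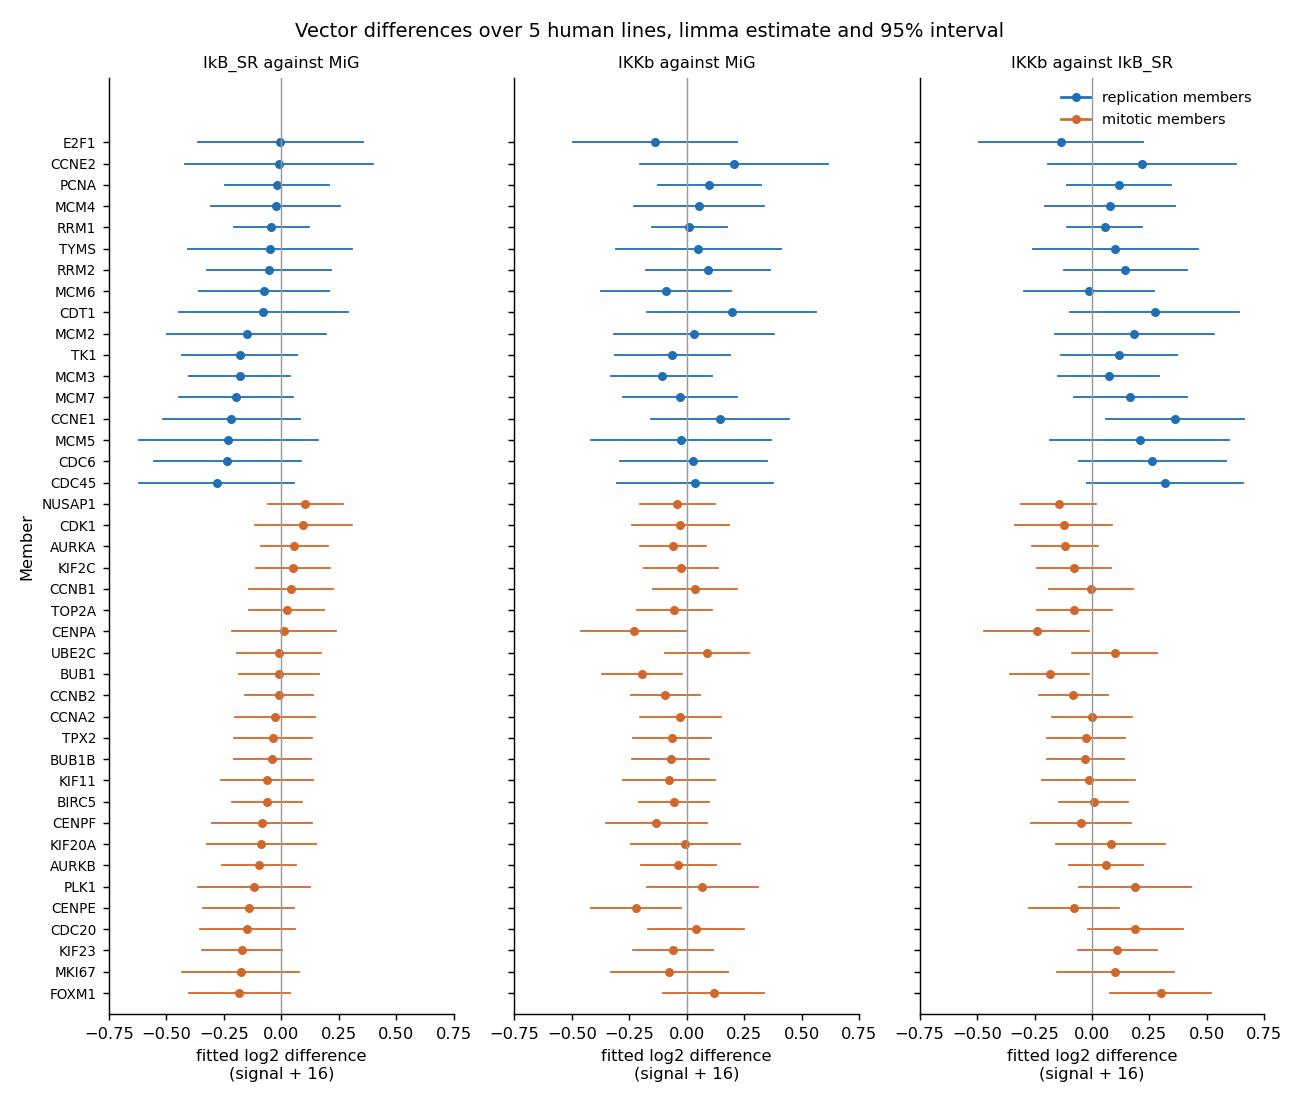
Fitted log2 differences with 95% intervals for the 41 members in the 3 human vector comparisons (15 arrays, cell line as block, signal plus 16). In IKKb against MiG and in IkB_SR against MiG each set centres near 0, and in IKKb against IkB_SR the replication members centre at 0.15 with FOXM1 at 0.30.

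Setting the activating vector against the blocking one gave the widest contrast, in which 0.933% of all genes (142 of 15212) passed the threshold and 0 of 41 members did. The replication members had a median log2 difference of 0.15, 15 of 17 above 0, and the mitotic members of -0.02, 10 of 24 above 0, beside -0.01 for all genes. At an unadjusted p below 0.05 there were 4 members and 2160 of all genes (14.2%). This comparison shares its arrays with both comparisons against MiG.

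FOXM1 was higher with IKKb than with IkB_SR in 5 of 5 lines, by 1.23-fold. Its signals with IKKb were 4071, 3895, 1804, 1679 and 4421 units, and with IkB_SR 3664, 3207, 956, 1578 and 4203, in the order A549, H23, H358, HCC827 and PC9. The log2 difference was 0.30 ± 0.10 (adjusted p = 0.214 by limma), and it was 0.15 ± 0.07 without the H358 line. CCNE1 was higher in 4 of 5 lines by 1.29-fold (0.36 ± 0.14, adjusted p = 0.264), at 1780, 1344, 516, 705 and 1071 units with IKKb and 1930, 1168, 269, 593 and 710 with IkB_SR. It was 0.23 ± 0.13 on the log2 scale without H358. At the other end stood CENPA (-0.24 ± 0.11, adjusted p = 0.328) and BUB1 (-0.18 ± 0.08, adjusted p = 0.326).

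The replication difference between those vectors was again an H358 value. The single-array replication medians of IKKb against IkB_SR were 0.79 in H358, 0.09 in H23, -0.02 in PC9, -0.03 in A549 and -0.23 in HCC827. In H358, 17 of 17 replication members were higher with IKKb and 15 by more than 1.5-fold, where 13.4% of all genes were. The fitted median over the lines was -0.02 without the H358 IkB_SR array, 0.03 without the H358 IKKb array and -0.02 without the line. The mitotic median in H358 was 0.27.

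Every member differed in level between the lines. All 41 passed the threshold of 0.05 in limma's F test across the 5 lines with the vector as block, as did 86.7% of all genes. The median range of line means was 2.01-fold for replication members and 1.86-fold for mitotic members. Each line is represented by 3 arrays that differ in vector.

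CCNE1 ranged most among the replication members, 5.07-fold, from 1908 ± 119 units in A549 (SD, n = 3) to 376 ± 127 in H358, with H23 at 1249 ± 88.8, PC9 at 997 ± 258 and HCC827 at 611 ± 86.3. H23 and PC9 overlapped, and the other neighbours in that order did not. CCNE2, its paralog, followed another order over 3.99-fold, with HCC827 (2991 ± 372) and H358 (2160 ± 989) above PC9 (1519 ± 165), A549 (799 ± 90.4) and H23 (742 ± 135). For CCNE2 the 3 arrays of PC9 lay above those of A549, while the other neighbours overlapped. TYMS spanned 4.39-fold, and its H23 level of 24685 ± 2169 stood clear of the next lines, PC9 at 10730 ± 1469 and A549 at 10599 ± 432. The narrowest ranges were those of RRM1 (1.49-fold), RRM2 (0.59 as a log2 range) and MCM2 (1.68-fold), and no neighbouring pair of lines separated for RRM2.

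Among the mitotic members AURKB, the kinase of the chromosomal passenger complex, ranged 3.83-fold. H23 read 3623 ± 184 units, A549 2061 ± 147, H358 1514 ± 161, HCC827 1451 ± 80.2 and PC9 934 ± 22.9, and only H358 and HCC827 overlapped as neighbours. UBE2C, an enzyme of the anaphase-promoting complex, ranged 3.30-fold with H23 on top (15891 ± 1349) and HCC827 lowest (4790 ± 118). FOXM1 ranged 3.19-fold and split the lines, with PC9 (4283 ± 120), A549 (3883 ± 205) and H23 (3516 ± 349) above HCC827 (1687 ± 114) and H358 (1377 ± 424). MKI67 ranged 3.11-fold, from 2852 ± 439 in A549 to 918 ± 228 in H358. KIF11 put every line apart from the next, from H23 (3939 ± 62.3) through A549 (3216 ± 137), PC9 (2750 ± 332) and HCC827 (1882 ± 144) down to H358 (1315 ± 209). BUB1 ran otherwise, with H358 (2864 ± 503) next to H23 at the top and A549 (1646 ± 168) at the bottom, so that H358 was not low throughout. CCNB2 (1.34-fold), BUB1B (1.42-fold) and CDC20 (1.46-fold) ranged least.

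No line was highest throughout. H23 had the highest mean for 8 of 17 replication and 10 of 24 mitotic members, A549 for 6 of the replication members, and PC9 for 9 of the mitotic ones. H358 was lowest for 10 of 17 replication and 11 of 24 mitotic members and highest for 0. Without its IkB_SR array, H358 was lowest for 3 replication and 8 mitotic members and highest for 0 and 1. On the MiG arrays alone it was lowest for 7 and 9 and highest for 0 and 2. The same ranks were not counted over all genes, so they are no trait of these members. After quantile normalization the highest line was the same for 16 of 17 and 23 of 24 members.

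**Figure D4:**
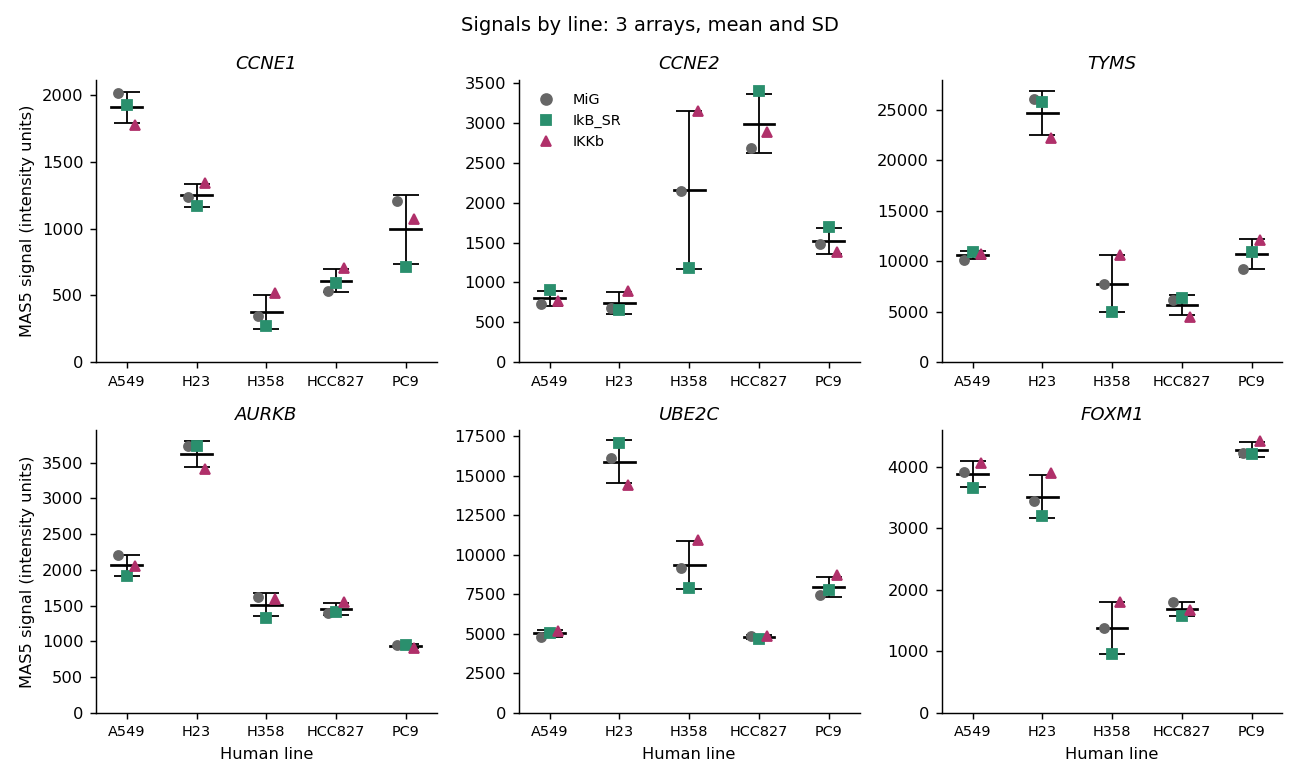
Signals of the 6 members with the widest ranges between the 5 human lines (intensity units, linear axis from 0), each point 1 array, with the mean and SD of the 3 arrays of a line. CCNE1 is highest in A549 and CCNE2 in HCC827, and AURKB and UBE2C are highest in H23.

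In mouse LLC cells, IKKb arrays were compared with MiG arrays, 2 against 2, and no member passed the threshold, in a comparison where 0% of 12549 genes did. The replication members had a median log2 difference of -0.12, 12 of 17 below 0, and the mitotic members of -0.10, 20 of 23 below 0, beside 0.00 for all genes. At an unadjusted p below 0.05 there were 0 of 40 members and 238 of all genes (1.90%). The intervals were wide, with SEs of 0.17 to 0.43, and 15 of 40 excluded a 1.5-fold change in either direction. After quantile normalization the replication median was 0.01.

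The arrays numbered 1 and those numbered 2 gave different pictures. Between the arrays numbered 1 the replication median was -0.23 and the mitotic median -0.13, and between those numbered 2 they were 0.01 and -0.06. After quantile normalization the pair of values was 0.05 and -0.12 for the arrays numbered 1 and -0.01 and -0.07 for those numbered 2. The MiG array numbered 1 stood apart, with actin at 28969 units against 14038 to 15828 on the other 3. The Dap spike-in read 1679 and 1567 on the arrays numbered 1 and 28.7 and 19.4 on those numbered 2, and what the numbers stand for is not stated. Pcna shows it, at 17978 and 11716 with MiG and 11644 and 12178 with IKKb, where only the first MiG array was high.

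Ccne1 was lower with IKKb in both numbered pairs. Its signals were 1219 and 1555 units with MiG and 939 and 1095 with IKKb, and both IKKb arrays lay below both MiG arrays. The log2 difference was -0.44 ± 0.20 (95% interval -0.92 to 0.05, adjusted p = 0.9997 by limma). With the replicate number as a block in the model its adjusted p was 0.0219, in a fit that called 223 of 12549 genes (1.78%). Averaging all Ccne1 probe sets gave -0.09 ± 0.20. In the human lines CCNE1 had a log2 difference of 0.14 ± 0.14 between the same vectors.

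Several mitotic members were lower on both IKKb arrays by small amounts. For 8 of 23 mitotic members (34.8%) both IKKb arrays lay below both MiG arrays, where 11.2% of all genes did, and these were Ccna2, Cdk1, Cdc20, Aurka, Bub1, Kif20a, Ube2c and Birc5. Cdc20 read 9712 and 9675 with MiG and 6379 and 9323 with IKKb (-0.33 ± 0.24 on the log2 scale), and Ube2c read 10578 and 8100 against 7788 and 7612 (-0.27 ± 0.22). Aurka, a centrosomal kinase, read 2972 and 2974 against 2721 and 2854. Other mitotic members overlapped, among them Mki67 at 5113 and 5050 against 4865 and 5073, and Plk1 at 2603 and 2382 against 2544 and 2523. After quantile normalization 7 of 23 lay below (30.4%, against 12.5% of all genes), without Cdc20 and Ube2c and with Foxm1. The members share cells and arrays, so their number is no count of independent events.

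Among the replication members both IKKb arrays lay below both MiG arrays for Mcm6 and Ccne1 (2 of 17, 11.8%), a share near the 11.2% of all genes, and after quantile normalization for Ccne1 below and for Mcm3 and Mcm5 above. No member lay above on the signals as deposited, where 10.9% of all genes did, and 9.91% did after quantile normalization. Mcm6 read 11638 and 8916 with MiG and 8406 and 8868 with IKKb. The highest replication values were those of Ccne2 (0.22 ± 0.43), at 1091 and 2563 against 1477 and 2583, and Cdc6 (0.17 ± 0.23), at 1399 and 2044 against 1787 and 2036. Tyms read 205 units or less on all 4 arrays. Both Ccne2 and Cdc6 differed more between the arrays numbered 1 and 2 than between vectors.

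**Figure D5:**
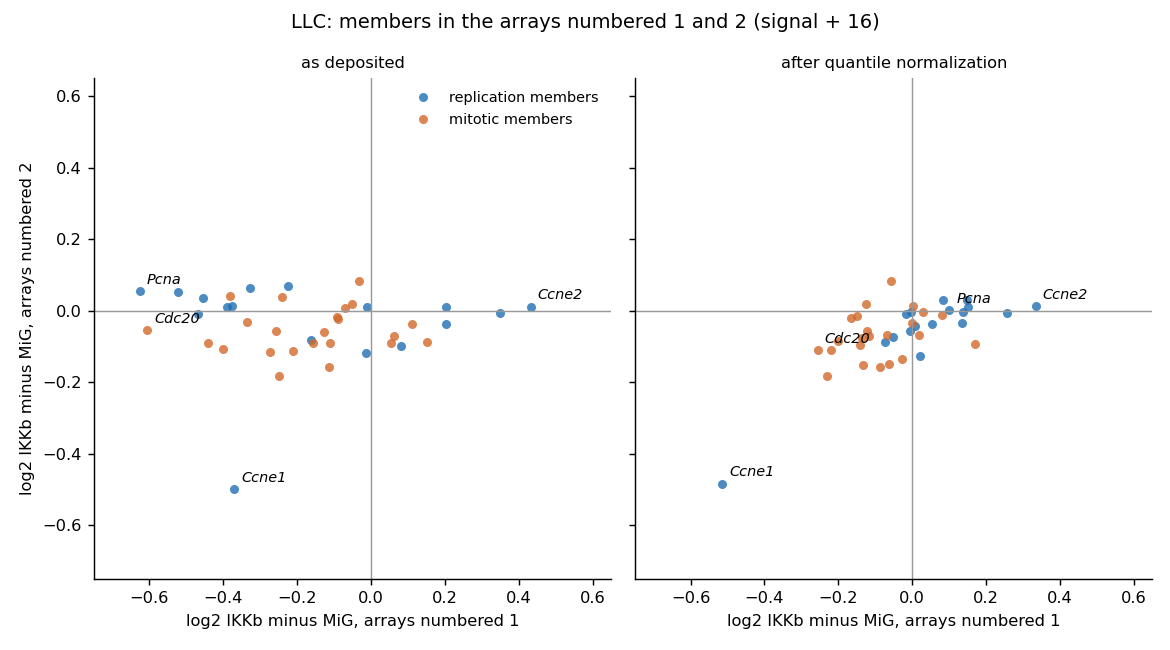
Log2 differences of IKKb minus MiG in LLC for the 40 members, arrays numbered 1 on the horizontal and arrays numbered 2 on the vertical axis, from signals as deposited (left) and after quantile normalization (right). Ccne1 lies below 0 on both axes in both panels, and Pcna moves from far left to near 0.

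The other lists gave no gene past the threshold in LLC or in the human comparisons, apart from the leukocyte list. There ITGAM, an integrin of myeloid cells, was higher with IKKb than with IkB_SR by a log2 difference of 1.72 ± 0.34 (adjusted p = 0.0327 by limma). The other 3 tested genes of that list did not pass. The G1 cyclins and kinases had medians of 0.08 for IKKb against MiG, -0.10 for IkB_SR against MiG and 0.17 for IKKb against IkB_SR over 8 tested genes, and of -0.10 over 9 genes in LLC. The 11 CDK inhibitors and RB family genes had medians of -0.02, -0.06 and 0.02 in the same human comparisons.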

How the data were processed

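Per the labels, total RNA from 19 samples was made into biotin-labelled cRNA for single-colour arrays. The authors deposited a linear intensity for each probe set, made with GCOS 1.4 and MAS5 per the submitters' processing notes. Each array's mean, trimmed by 2 percent at both ends, was 500 to 500.1, and such scaling removes differences in total RNA.

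Of 54675 human and 45101 mouse probe sets, 41097 and 34958 name 1 gene. The brightest stood for its gene. A gene was kept if it exceeded the 40th percentile of 5 or more human arrays, or 2 or more mouse arrays (15212 and 12549). Log2 of signal plus 16 was fitted with limma 3.58.1 (R 4.3.3; lmFit, eBayes with trend) with cell line as block in human and no block in LLC. Tests were two-sided, with Benjamini-Hochberg adjustment over all kept genes and a threshold of 0.05. Figures used matplotlib 3.10.9 in Python 3.11.15. The code was tested on simulated data.

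The members, lists and tests were chosen with earlier results of these data known. Members with the 2 highest and 2 lowest differences per set and comparison, the widest and narrowest line ranges, and a fixed set were named; H358 and LLC members beyond these were named after their values were seen. Alternatives were the pseudocount, the filter, the normalization, the probe set rule, the variance model, the block and each array left out; leaving out the H358 IkB_SR array, scaling per line and LLC separation after quantile normalization were added after seeing the data. The number of arrays limits the precision. Same-numbered LLC arrays deviated together (correlation 0.53 across genes), but the labels do not say that the numbers pair them.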

Additional observations from a re-analysis of the deposited data

Results flagged for a closer look

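Of 48 groups of 5 per-line log2 differences examined, 9 had 1 line far from the other 4 by Dixon's criterion. Its critical value is set to flag about 5% of independent groups by chance. The 48 groups reuse the same human arrays, so that share is no yardstick for the 9. In all 9 the line was H358. For IkB_SR against MiG, H358 lay low for the median of the replication members (-0.68), for MCM2 (-0.68) and for TYMS (-0.65). For IKKb against MiG it lay high for MCM2 (0.62). For IKKb against IkB_SR it lay high for MCM2 (1.30), CDC6 (1.19), FOXM1 (0.90), PLK1 (0.83) and PCNA (0.65). These 9 values share 3 arrays and are not independent of each other. Of 40 members compared between the human lines and LLC, 0 went opposite ways in every sample.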

How the results depend on the processing

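No human member was called between vectors under any alternative, the fit with no replicate block (no cell line block) included, and 38 to 41 of 41 were called between lines. The replication median of IKKb against MiG was -0.10 without the H358 IKKb array, and leaving out other arrays or lines gave up to 0.06. Leaving out arrays gave -0.18 to 0.05 for the replication median of IkB_SR against MiG and -0.25 to -0.01 in LLC. In LLC the replicate block called 1 member, Ccne1, and the mitotic median was -0.029 when a gene's probe sets were averaged. Median centring moved the median of all genes in single lines, to 0.15 for IKKb against MiG in A549, where the replication median was then 0.18. Of the fitted values of named members under the alternatives, 62 moved by more than the standard error with no change of call, 1147 did neither, and 1 crossed the threshold (Ccne1 with the replicate block). With 1 array per line and vector, the H358 differences have no replicate check.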
